A study of Rattus norvegicus with 6 samples.

Results

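The T cell receptor complex and its coreceptors were examined as 9 genes, namely the receptor's signalling chains Cd3e, Cd3d, Cd3g and Cd247, the coreceptor genes Cd4, Cd8a and Cd8b, and the kinase genes Lck and Zap70. They were read by every array probe whose accession is a RefSeq transcript of one of them, which gave 12 probes of the 61657 non-control probes. Each of the 9 genes had at least 1 probe, and Cd247, Cd4 and Cd8b had 2 each. The tissue was kidney cortex, taken from male rats of the Sprague-Dawley stock that were 5 weeks old at purchase. Over 4 weeks 3 rats received 4 mg/kg/day of N-nitrosodimethylamine (NDMA), a DNA-methylating carcinogen once metabolised, and 3 control rats received water; all were kept on a basal diet. Each animal was measured on 1 Agilent 1-colour oligonucleotide array.

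A T cell sees its antigen through a pair of variable receptor chains that have almost no cytoplasmic part. Signalling is left to the invariant CD3 epsilon, delta and gamma chains and the zeta chain, which carry tyrosine motifs in their tails. The coreceptors CD4 and CD8 bind MHC class II and class I molecules and bring the kinase LCK to the receptor, LCK phosphorylates the tyrosine motifs, and ZAP-70 docks on them and passes the signal on. In healthy kidney T cells are sparse, and they accumulate in the interstitium in many forms of renal injury. In the rat, monocytes and macrophages also carry CD4, and natural killer (NK) cells carry CD8 alpha, the zeta chain, LCK and ZAP-70, so these genes are not all restricted to T cells. The variable receptor chains themselves are not analysed here.

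Between 43016 and 46248 probes were well above background on an array, and 0 to 4 were saturated. A signal is given below as log2 of the processed intensity minus the same array's 75th percentile, so that 0 is the level of that percentile. All 3 controls and NDMA animal 1 were on slide 1, and NDMA animals 2 and 3 were on slide 2, which was scanned separately. The test, in limma, took in 43118 probes that were well above background in all 3 animals of either group, 11 of them probes of the 9 genes. A probe was called where its p-value, adjusted by the Benjamini-Hochberg method over all 43118, was under 0.05. The second Cd247 probe was too dim to be tested. The median log2 difference over all tested probes was -0.04. The tissue label was borne out by the tubular genes: Slc34a1, the phosphate transporter of the proximal tubule, had a mean log2 signal of 8.26 ± 0.08 in NDMA-treated rats and 8.51 ± 0.03 in controls (SD, n = 3 each), and Umod, of the thick ascending limb, 8.12 ± 0.11 in NDMA-treated rats and 8.32 ± 0.36 in controls.

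The promoters of the chains and of Zap70 are shown because the chains carry the receptor's signalling, and Cd3d, Cd3g, Cd247 and Zap70 kept their calls whichever animal was left out. The sequences are the 250 bases before a RefSeq transcription start in rat build GRCr8, written 5′ to 3′ on the gene's strand. For Cd3d and Cd3g that start lies inside the annotated gene, as do all of the Cd3d window and part of the Cd3g window. Whether these windows act as promoters was not tested. Capitals mark the core of the binding motif of ETS factors (GGAAG, or CTTCC on the other strand), a family that is prominent in lymphocytes.
Cd3e (chr8:54211771-54212020, minus strand): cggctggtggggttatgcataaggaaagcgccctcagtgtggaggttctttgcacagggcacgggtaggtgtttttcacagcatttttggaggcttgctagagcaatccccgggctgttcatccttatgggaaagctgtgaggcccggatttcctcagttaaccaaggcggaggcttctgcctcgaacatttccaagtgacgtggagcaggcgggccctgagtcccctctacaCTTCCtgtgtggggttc
Cd3d (chr8:54185269-54185518, plus strand): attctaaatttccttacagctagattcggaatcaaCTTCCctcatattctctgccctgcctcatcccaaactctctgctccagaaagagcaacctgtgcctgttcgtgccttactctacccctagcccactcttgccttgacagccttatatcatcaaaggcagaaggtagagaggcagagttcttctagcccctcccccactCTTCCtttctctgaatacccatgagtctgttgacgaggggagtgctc
Cd3g (chr8:54183919-54184168, minus strand): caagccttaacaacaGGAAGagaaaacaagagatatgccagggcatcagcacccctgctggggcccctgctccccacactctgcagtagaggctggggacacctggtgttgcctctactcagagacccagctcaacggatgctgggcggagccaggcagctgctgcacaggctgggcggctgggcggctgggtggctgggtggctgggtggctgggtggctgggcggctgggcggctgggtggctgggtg
Cd247 (chr13:80576019-80576268, plus strand): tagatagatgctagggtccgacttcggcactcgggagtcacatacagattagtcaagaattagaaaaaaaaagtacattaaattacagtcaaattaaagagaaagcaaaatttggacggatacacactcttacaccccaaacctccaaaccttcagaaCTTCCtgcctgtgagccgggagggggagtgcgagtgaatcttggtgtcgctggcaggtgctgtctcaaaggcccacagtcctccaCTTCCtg
Zap70 (chr9:46485355-46485604, plus strand): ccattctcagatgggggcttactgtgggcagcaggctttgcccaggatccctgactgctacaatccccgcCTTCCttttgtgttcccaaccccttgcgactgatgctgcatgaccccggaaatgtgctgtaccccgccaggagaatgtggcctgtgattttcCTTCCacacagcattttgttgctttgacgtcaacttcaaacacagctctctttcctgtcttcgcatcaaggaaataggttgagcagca
Each of these windows held the ETS core at least once, and Cd3d, Cd247 and Zap70 held it 2 times. The same letters occur in 63.3% of the 33469 promoters of this length in the table, so their presence does not set these genes apart. RefSeq starts were given for 7 of the 9 genes. Of the windows not shown, that of Cd8a held no ETS core, and the 2 of Lck held it 2 and 5 times. The RUNX motif TGTGGT (14.5% of all windows) occurred in none of the 5 windows shown, and 1 time in the second Lck window. Among the 5 windows shown, the E-box CAGGTG (15.9%) occurred in those of Cd3g and Cd247. The TCF/LEF motif CTTTGA (13.9%) occurred in those of Cd3d, Cd247 and Zap70 and the CRE half-site TGACG (18.2%) in those of Cd3e, Cd3d and Zap70, with the pair overlapping in Zap70. The GATA motif AGATAA (10.3%) occurred in none of the 5, and each motif was searched on both strands. Cd3g, Cd3d and Cd3e lie side by side on chromosome 8 with no other protein-coding gene between them, and Cd3g and Cd3d run in opposite directions. The starts used for their windows are 1601 bases apart. The annotated genes are nearer to each other, with Cd3g reaching to base 54184087 and Cd3d beginning at base 54184573.

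Each of the 11 tested probes read a higher signal in the NDMA-treated rats, and 8 of them passed the test. Over all tested probes, 2.50% were called higher. The log2 differences ran from 0.67 for Cd4 to 2.51 for Cd3e, with a median of 1.20. With normexp background correction they ran from 0.25 to 2.02, with a median of 0.73. Cd3e, which was called, was not well above background in all controls and entered the test through the NDMA group alone. With only probes above background on all arrays, 7 of 10 were called higher, as were 2.32% of all probes. The highest difference was then 2.26, for Cd3g. The groups did not overlap for any of the 11 probes, which held with NDMA higher for 10.9% of all probes. By the brightest probe of each gene, all 4 receptor chains, both kinases and Cd4 were called, and Cd8a and Cd8b were not. Whole cortex was measured, so more T cells in the tissue and more of these transcripts per cell cannot be told apart.

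**Figure D1:**
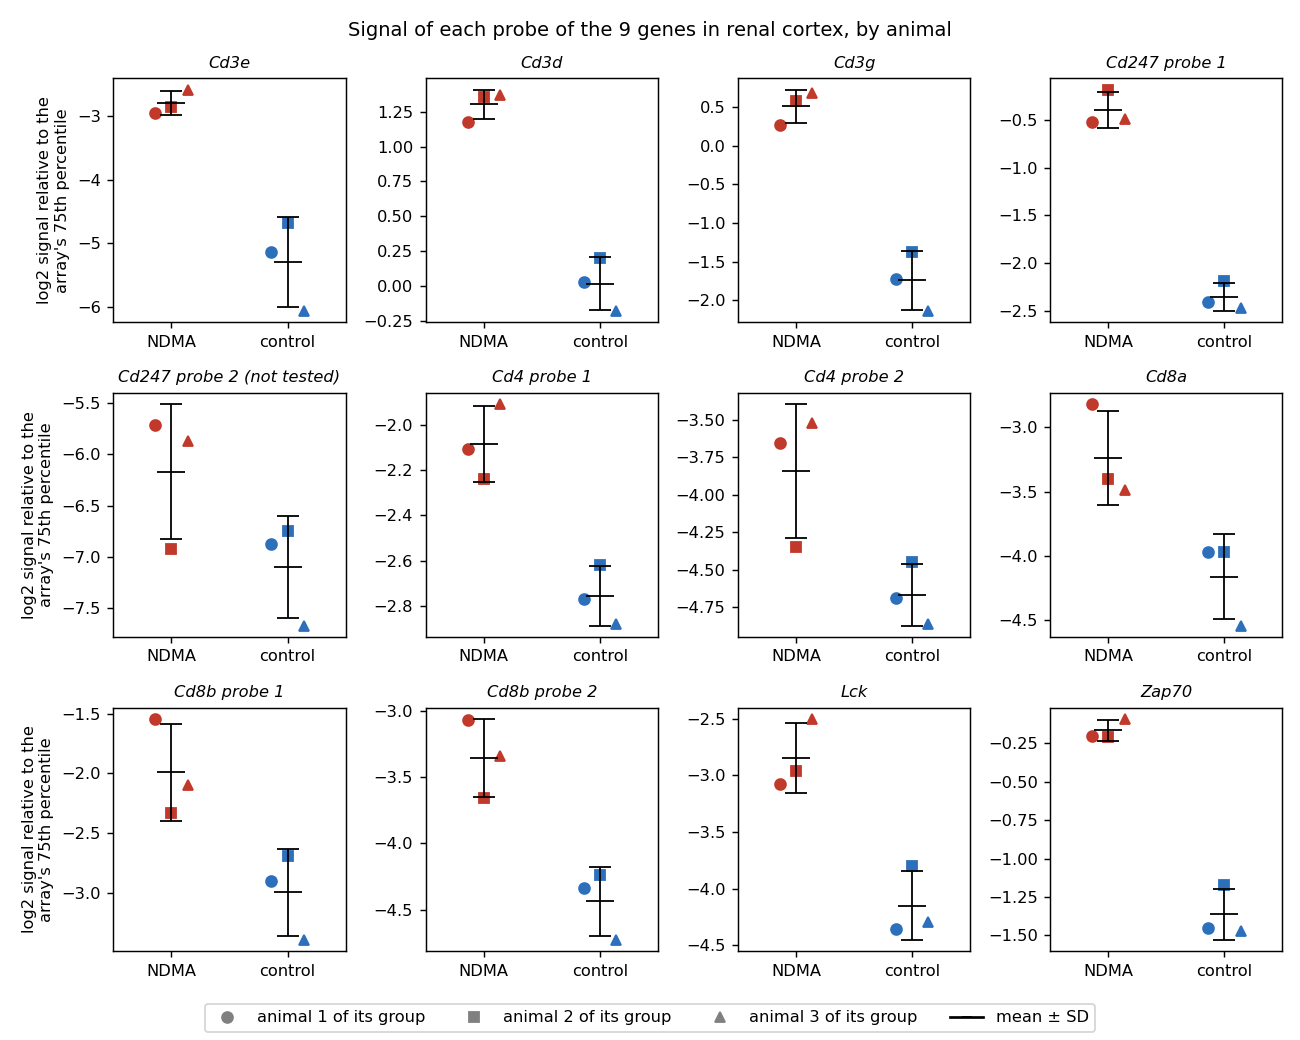
Signal of all 12 probes by animal, as log2 relative to the array's 75th percentile; each panel is 1 probe with its own vertical scale, NDMA animals stand left of controls, marker shapes give the animal's number within its group, and bars are mean ± SD. The groups are apart in 11 panels, and overlap for the second Cd247 probe.

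Among the receptor chains, the differences of Cd3e, Cd3g and Cd247 were above those of all other genes of the set, an order that Cd3e lost with normexp. Cd3e, which encodes the epsilon chain that pairs with gamma and with delta, had log2 signals of -2.95, -2.85 and -2.58 in the NDMA animals, numbered 1 to 3, against -5.14, -4.69 and -6.07 in controls 1 to 3. The lowest NDMA animal was 1.74 above the highest control. Control 3 was not well above background on this probe. The difference of 2.51 ± 0.34 (SE) was a 5.69-fold rise (95% interval 3.21 to 10.1, adjusted p = 0.0192). With normexp background correction, which adds an offset and so shrinks the differences of dim probes, it was 1.05, below those of Cd3g (2.02), Cd247 (1.58) and Cd3d (1.22) (adjusted p = 0.00359, and from 0.00341 to 0.293 over all alternatives).

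Cd3g, the gamma chain, had signals of 0.27, 0.58 and 0.69 in NDMA animals, against -1.72, -1.37 and -2.14 in controls. All NDMA animals were above the 75th percentile of their arrays and all controls were below it. The gene rose 4.79-fold (log2 difference 2.26 ± 0.21, 95% interval of the fold 3.35 to 6.83, adjusted p = 0.00736). Cd3d, the delta chain, was the brightest of the 12 probes, with 1.18, 1.36 and 1.37 in NDMA animals and 0.03, 0.20 and -0.18 in controls. The spread within each group was at most 0.19 (SD), and the gene rose 2.44-fold (1.29 ± 0.12, interval 1.99 to 2.98, adjusted p = 0.00736). Whether the differences of these 3 neighbouring genes were unequal was not tested.

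Cd247 encodes the zeta chain, which holds more of the tyrosine motifs than any CD3 chain and also serves Fc and NK receptors. Its bright probe had signals of -0.52, -0.18 and -0.49 in NDMA animals, against -2.41, -2.19 and -2.47 in controls. The rise was 3.89-fold (1.96 ± 0.13, interval 3.12 to 4.84), with the smallest adjusted p of the 11 probes (0.00533). The other probe of the same transcript was dim, at -5.71, -6.92 and -5.87 in NDMA animals and -6.87, -6.75 and -7.67 in controls. It was well above background on 2 NDMA arrays and on 0 control arrays, the groups overlapped, and no fold is given for it.

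Both kinase genes rose. Zap70, the kinase that docks on the phosphorylated chains, had signals of -0.20, -0.21 and -0.09 in NDMA animals, against -1.45, -1.17 and -1.47 in controls. The NDMA animals differed among themselves by only 0.07 (SD), and the rise was 2.29-fold (1.20 ± 0.11, interval 1.92 to 2.74, adjusted p = 0.00736). Lck, the Src-family kinase bound to the coreceptors, had -3.08, -2.96 and -2.50 in NDMA animals, against -4.36, -3.80 and -4.29 in controls. The rise of Lck was 2.47-fold (1.31 ± 0.21, interval 1.74 to 3.50, adjusted p = 0.0304), and 0.73 on the log2 scale with normexp (adjusted p = 0.0213, and from 0.0127 to 0.294 over all alternatives).

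In the fit over all 6 arrays the coreceptors had smaller differences than the chains and kinases. With slide as a block that order did not hold: Cd8a differed by 1.34 and the Cd8b probes by 1.46 and 1.36, against 1.16 for Cd3d and Zap70 and 1.07 for Lck. For Cd4, the brighter probe had -2.11, -2.24 and -1.91 in NDMA animals, against -2.77, -2.62 and -2.88 in controls. This was a 1.59-fold rise (0.67 ± 0.12, interval 1.30 to 1.94, adjusted p = 0.0423). The gap between the groups was 0.38, against 1.74 for Cd3e. The dimmer Cd4 probe had -3.65, -4.35 and -3.52 in NDMA animals and -4.69, -4.45 and -4.86 in controls, so that NDMA animal 2 was only 0.10 above the highest control. Its difference of 0.83 ± 0.23 did not pass (interval of the log2 difference 0.26 to 1.39, adjusted p = 0.145).

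Cd8a, the alpha chain found in all forms of CD8, had -2.82, -3.40 and -3.49 in NDMA animals, against -3.97, -3.97 and -4.54 in controls. The groups were 0.48 apart, and the difference of 0.93 ± 0.24 did not pass (interval 0.36 to 1.49, adjusted p = 0.115). Cd8b, the beta chain of the heterodimer of cytotoxic T cells, was read by 2 probes that gave nearly the same difference and fell on either side of the threshold. The brighter had -1.54, -2.33 and -2.10 in NDMA animals and -2.90, -2.69 and -3.40 in controls, a difference of 1.01 ± 0.26 (interval 0.38 to 1.63, adjusted p = 0.117). The dimmer had -3.07, -3.66 and -3.34 in NDMA animals and -4.34, -4.24 and -4.73 in controls, a 2.11-fold rise (1.08 ± 0.19, adjusted p = 0.0417).

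Whether the CD8 genes changed more than Cd4 was tested on the difference of their log2 signals within each array. Cd8a minus Cd4 was 0.26 higher in NDMA animals than in controls, at -0.71, -1.15 and -1.58 against -1.20, -1.35 and -1.66 (exact permutation test, two-sided, p = 0.400). Cd8b minus Cd4 was 0.34 higher, at 0.57, -0.08 and -0.19 against -0.13, -0.07 and -0.53 (exact permutation p = 0.500, and 0.500 for both after adjustment over the 2 pairs). The groups overlapped in both, and p = 0.1 is the smallest that an exact test allows with 3 animals a group. The design could therefore not have called an unequal change.

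**Figure D2:**
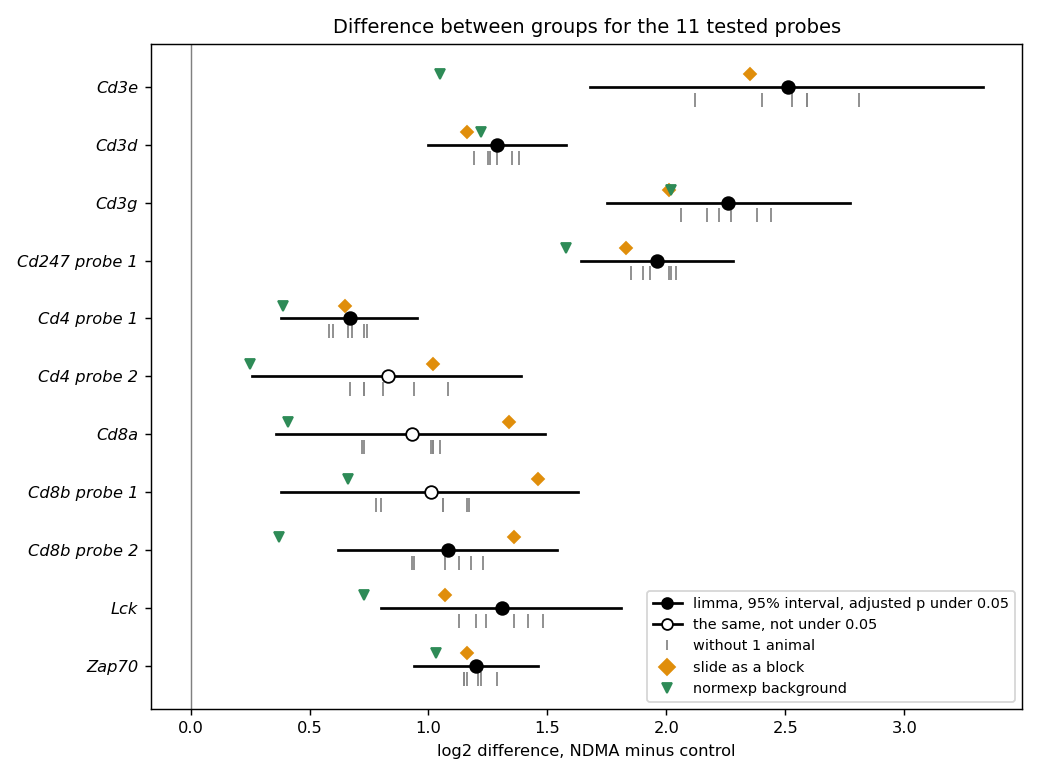
Log2 difference, NDMA minus control, of the 11 tested probes, with the 95% interval of the fit over 6 arrays (filled where called), and the same difference without 1 animal, with slide as a block and with normexp background correction. All 11 intervals lie above 0, and the normexp value of Cd3e is 1.05 against 2.51.

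The animals differed from each other in a way that ran through the gene set. Control 2 had the highest control signal on all 11 tested probes, and control 3 the lowest on 10 of them. Over all tested probes, control 2 was the highest control for 34.4% and control 3 the lowest for 35.5%. Among NDMA animals, the receptor chains and the coreceptors were not ordered alike. NDMA animal 1 was the lowest of its group for Cd3e, Cd3d, Cd3g and the bright Cd247 probe, at 2.35, 1.16, 2.01 and 1.83 above the control mean. It was the highest of its group for Cd8a and for both Cd8b probes, at 1.34, 1.46 and 1.36. NDMA animal 2 was the lowest for both Cd4 probes, at 0.51 and 0.32, and NDMA animal 3 was the highest, at 0.84 and 1.14. NDMA animal 1 was on slide 1 and NDMA animals 2 and 3 were on slide 2. What sets NDMA animal 1 apart from them therefore cannot be told apart from slide. With 3 animals these orders are a description.

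**Figure D3:**
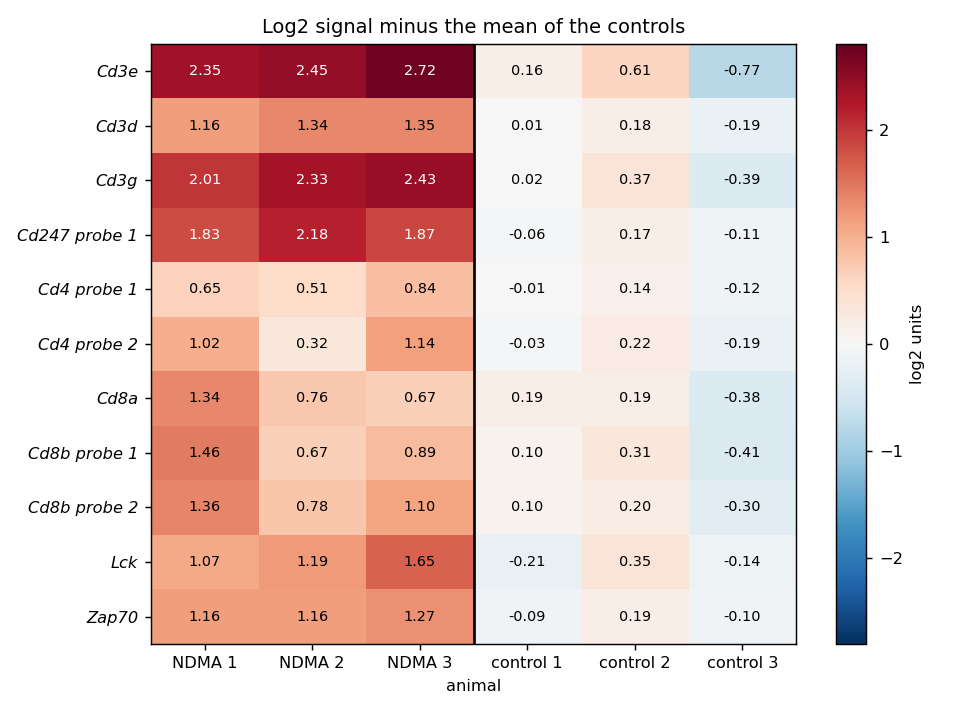
Log2 signal of each of the 11 tested probes in each animal minus the mean of the 3 controls. NDMA animals 1 to 3 are on the left and controls on the right; all NDMA cells are above 0, from 0.32 to 2.72, and NDMA animal 1 is highest in the 3 CD8 rows.

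Slide 2 held only NDMA animals, so the slide could be set apart from treatment through NDMA animal 1 alone. On the controls' own slide, NDMA animal 1 was above all 3 controls for each of the 11 probes, against 25.0% of all tested probes, by 0.65 (bright Cd4 probe) to 2.35 (Cd3e) over the control mean. With slide as a fixed block in limma, which gives these same differences, 0 of the 11 probes passed (adjusted p from 0.0525 for Cd247 to 0.402). In that fit 0.167% of all probes were called higher. An unadjusted p under 0.05 was reached there by 11 of the 11 probes and by 4291 of all 43118. The calls of Cd3d, Cd3g, Cd247 and Zap70 were kept in each of the 6 fits that left out 1 animal, that of Cd3e in 3 and that of Lck in 2. Those of Cd4 and of the dim Cd8b probe were lost in all 6. The count of probes called was 4 without NDMA animal 3 or control 1, 5 without NDMA animal 2 or control 3, and 6 without NDMA animal 1 or control 2. Over all probes the share called higher was 1.92%, 1.27% and 1.02% without NDMA animals 1, 2 and 3, and 0.995%, 1.50% and 1.48% without controls 1, 2 and 3.

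Other genes of the receptor's signalling pathway were higher in part. Of 32 listed genes 25 had a named probe and 22 were tested, of which 7 rose and 0 fell. The median log2 difference of the list was 0.48. Over the 12175 named genes tested, the median was -0.04 and 3.56% were called higher. The 2 adaptors that ZAP-70 phosphorylates rose, Lat 1.90-fold (0.93 ± 0.10, adjusted p = 0.00918) and Lcp2, which encodes SLP-76, 2.60-fold (1.38 ± 0.14, adjusted p = 0.00911). Vav1, an exchange factor that binds SLP-76, rose 2.89-fold (1.53 ± 0.22), and Rhoh, a GTPase that recruits ZAP-70 in mouse T cells, rose 2.15-fold (adjusted p = 0.0204). The adaptors Sla and Dok2, which restrain receptor signalling in mice, rose 2.33-fold (1.22 ± 0.11) and 2.24-fold (1.16 ± 0.13), with Dok2 well above background in 1 of 3 controls. The seventh was Fyn, a Src-family kinase of many tissues, with the smallest rise (0.45 ± 0.08, adjusted p = 0.0377). Lcp2, Vav1, Sla and Dok2 are also expressed by myeloid cells.

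Some T cell members of the pathway had large differences and did not pass. The transmembrane adaptor gene Sit1 differed by 1.50 ± 0.37 (adjusted p = 0.106), with 1 low control at -4.08 against -2.73 and -2.92. Fyb1 and the phosphatase gene Ptpn22 differed by 0.83 ± 0.24 and 0.77 ± 0.28. No array read Trat1 or Rasgrp1 well above background.

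Of 30 further T cell genes 26 had a named probe and 23 were tested, of which 8 rose and 0 fell. The median difference was 1.13, or 0.82 with genes that no control read above background at their bound, 0.46 over probes above background on all arrays and 0.32 with normexp. Ifng, Lef1, Cd5 and Il2ra, among others, were not above background in all controls and entered the test through the NDMA group alone. With only probes above background on all arrays, 6 of 18 genes were called higher, as were 2.32% of all probes. The costimulatory receptors Cd27 and Icos rose 3.46-fold (1.79 ± 0.14) and 2.43-fold (1.28 ± 0.10, adjusted p = 0.00596 for both). Cxcr3, the chemokine receptor of activated T cells, rose 3.71-fold (1.89 ± 0.17), Cd6 2.40-fold (1.26 ± 0.15), Cd2, an adhesion receptor, 3.02-fold (1.59 ± 0.23) and Cd69, an early activation marker, 2.91-fold (1.54 ± 0.18). No control was well above background for Ifng or for the transcription factor gene Lef1, and the mean of the NDMA animals was at least 1.94-fold and 1.64-fold higher. Such bounds hold for the mean of the NDMA animals and not for each animal. For these bounds the control value was, on each array, the lowest signal that counted as well above background, or the probe's own signal where that was higher.

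Cd5, a scavenger-type receptor that dampens receptor signalling, had the largest difference of the list (2.94 ± 0.63) and did not pass (adjusted p = 0.0726). Its signals were -3.53, -3.63 and -3.01 in NDMA animals, against -7.66, -5.00 and -6.31 in controls, of which 1 was well above background. Il7r, Il2ra and Cxcr6 differed by 1.35, 1.18 and 1.13 and did not pass (adjusted p = 0.0682, 0.258 and 0.0763), and Il2ra was above background in 1 of 3 controls. Among regulators of the CD4 and CD8 lineages, chosen here after their values were seen, Zbtb7b differed by -0.04, Runx3 by -0.11, Gata3 by -0.08 and Foxp3 by 0.39 without passing. The T cell list thus held both called genes and genes near 0, and the counts say nothing of which cells, T cells or others, carried the transcripts.

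**Figure D4:**
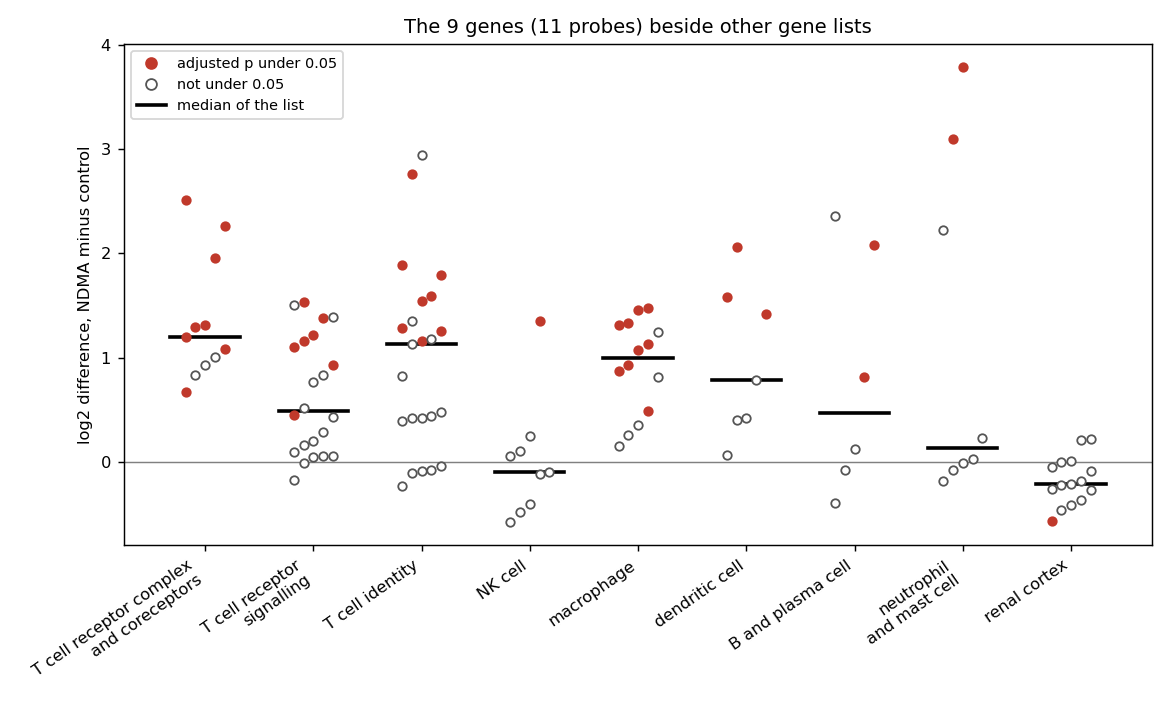
Log2 difference, NDMA minus control, of the 11 tested probes of the 9 genes (left) and of the genes of 8 other lists, each by its brightest tested probe; filled points passed the test and black bars are medians. The median is 1.20 for the 9 genes, 0.48 and 1.13 for the T cell lists and -0.10 for NK cell genes; with normexp the first 3 are 0.73, 0.34 and 0.32.

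Markers of other blood cells that carry some of these genes moved unequally. Over the 12175 named genes tested, 3.56% were called higher and 0.485% lower. Of 9 NK cell markers tested 1 rose, Fcgr3a, an Fc receptor that macrophages share (1.35 ± 0.21), and 0 fell, with a median of -0.10. Klrb1a, Prf1, Nkg7 and Klrk1 differed by -0.40, -0.48, -0.10 and 0.10, and no array read Ncr1 or Klrc1 well above background. Whether NK cells or other cells, T cells among them, carried these transcripts was not tested. The summed signal of the NK list, as a multiple of the 75th percentile, was 4.83 to 5.69 in NDMA animals and 3.46 to 4.29 in controls. Without Fcgr3a, left out after the values were seen, the sum was 3.24, 2.66 and 2.91 in NDMA animals and 2.75, 3.23 and 3.36 in controls, and the groups overlapped. Of 14 macrophage markers 9 rose and 0 fell, with a median of 1.00, among them Cd68 (1.48 ± 0.13), C1qb (1.33 ± 0.12) and Tyrobp (1.07 ± 0.10), whereas Adgre1 and Cd14 differed by 0.15 and 0.35. The summed macrophage signal was 90.6 or more in NDMA animals and 40.7 to 49.6 in controls. Rat macrophages carry CD4, and their part in the Cd4 difference was not tested.

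Dendritic cell, B cell and mast cell genes were also read, beside the same shares of named genes (3.56% called higher and 0.485% lower). Xcr1, Blk, Cd22, Cma1, Cpa3 and Mcpt1 were not above background in all controls, and entered the test through the NDMA group alone. Of 7 dendritic cell markers 3 rose and 0 fell: Batf3 (1.42 ± 0.12), Clec9a (2.06 ± 0.19) and Xcr1 (at least 2.41-fold), which mark the subset that presents antigen to CD8 T cells. Fscn1 and Cd83 differed by 0.79 (adjusted p = 0.0525) and 0.40. The summed dendritic signal was 3.54 to 4.41 in NDMA animals and 2.09 to 2.66 in controls. Of 6 B and plasma cell markers 2 rose, Fcrla (0.81 ± 0.12) and Blk (at least 1.71-fold), and Pax5 differed by -0.39. Cd22, above background in 1 of 3 controls, did not pass (adjusted p = 0.144), and the list had a summed signal of 1.28 to 1.42 in NDMA animals and 1.20 to 1.52 in controls. Of 8 neutrophil and mast cell markers 2 rose, Cma1 (at least 4.26-fold) and Mcpt1 (3.79 ± 0.71, above background in 2 of 3 controls). Cpa3, well above background in 0 of 3 controls, was at least 3.63-fold higher in the NDMA mean without passing (adjusted p = 0.121). Its NDMA signals were -3.48, -5.64 and -3.60. Tpsab1 and S100a9 differed by -0.18 and -0.01, and the summed signal of the list was 2.96 to 3.65 in NDMA animals and 2.94 to 3.72 in controls. Of 15 genes of cortical cells 1 fell, the endocytic receptor gene Lrp2 (-0.57 ± 0.10, adjusted p = 0.0439), and 0 rose, while Slc22a6 and Aqp1 differed by -0.37 and -0.41. The summed signal of that list was 1301 to 1389 in NDMA animals and 1579 to 1717 in controls. The part of these cells in the differences of the 9 genes was not tested.

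The genes whose signal followed the mean of the 4 receptor chains most closely over the 6 arrays were Csf1r (Pearson r = 0.9991), Cd27 (0.9982), Irf1 (0.9972), C2 and Snx20 (0.9971 each), out of 12160 genes compared. The mean of the chains, centred on its own average, was 0.84, 1.07 and 1.09 in NDMA animals 1 to 3 and -0.97, -0.67 and -1.37 in controls 1 to 3. Csf1r, the growth factor receptor of macrophages, had -0.33, -0.27 and -0.29 against -0.78, -0.71 and -0.86, and rose by 0.49. The points are 6 arrays that share the group difference, and 310 genes had an r over 0.95.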

How the data were processed

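Each of the 6 arrays carried Cy3-labelled RNA of 1 animal, per the labels' protocols. The authors extracted spots with Agilent Feature Extraction (10.7 per the submitters' processing notes, 10.7.1.1 per the file headers), and the array's annotation names build rn4, so no coordinates are given for probes. The deposited processed intensity is background-subtracted and detrended within an array, per the file headers, and unscaled between arrays. The deposited value table holds ratios on a linear scale. Dividing processed intensity by the array's 75th percentile gave the same values within 0.00174 (log2, values over 0.1). Replicates are separate animals, per the series' design text.

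Here the 75th percentile of an array's non-control probes was subtracted on the log2 scale, and 18 outlier values of tested probes were set missing, 0 of them in the 12 probes. Accessions were matched without version to the RefSeq table of rat assembly GRCr8 (27460 of 61657 probes named, 33356 with a RefSeq-style accession). The comparison used limma's lmFit and eBayes (version 3.58.1, R 4.3.3), two-sided, on 4 residual plus 2.40 prior degrees of freedom, and was tested on simulated data. The number of arrays limits the precision. List genes were read by their brightest tested probe. Named genes were all 9 members, in the T cell lists up to 6 that passed by smallest p and 4 that did not by size, in each marker list up to 3 by smallest p and 2 that did not pass by signal, and the 5 genes most like the receptor chains; Fyn, Cd2, Lef1, Trat1, Rasgrp1, Ncr1 and Klrc1 were added to complete counts. Of the genes this rule names, 2 are not reported here. The members and lists were chosen with earlier results of these data known. The alternatives were background correction, scaling, filters, variance model, slide, replicate number, the value table and leaving out each animal.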

Additional observations from a re-analysis of the deposited data

Results flagged for a closer look

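The dimmer probe of Cd247, which lay outside the test because it was not well above background on all arrays of either group, was read above background in some NDMA-treated rats and in no control. It was well above background on 2 of 3 NDMA arrays and on 0 of 3 control arrays. Its log2 signals were -5.71, -6.92 and -5.87 in NDMA animals, against -6.87, -6.75 and -7.67 in controls. NDMA animal 2 lay below controls 1 and 2, so the groups overlapped, and with no filter on dim probes it did not pass (limma, adjusted p = 0.441).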

How the results depend on the processing

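No probe of the 9 genes changed direction in any fit, and the alternatives moved calls. Of 43118 probes 1289 were called, of the 11 probes 8, of 22 signalling genes 7 and of 23 T cell genes 8. Without a filter on dim probes these counts were 488, 4, 4 and 6, where more probes shared the adjustment. With slide as a fixed block they were 82, 0, 0 and 0 in limma, with 4291, 11, 9 and 13 at an unadjusted p under 0.05. Within slide 1, where NDMA animal 1 is assumed to vary like the controls, they were 0, 0, 0 and 0, with 4667, 11, 7 and 13 unadjusted. With the replicate block they were 511, 4, 4 and 6. Same-numbered animals did not deviate together (correlations over probes of 0.03, -0.05 and 0.01), so the numbers pair nothing, and not every animal correlated best with its own number.

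Leaving out 1 animal gave 464 to 987 probes, 4 to 6 of the 11, 4 to 6 signalling genes and 4 to 10 T cell genes. All probes called were 593 and 500 without NDMA animals 2 and 3 and 464, 692 and 707 without controls 1, 2 and 3. The signalling count was 4 without NDMA animal 2, NDMA animal 3 or control 2, and the T cell count was 4 without NDMA animal 2 and 5 without control 1. With normexp and the 75th percentile 943 probes were called higher and 516 lower, against 1080 and 209, and 6 of the 11 passed. The medians of the 11 probes, the signalling list and the T cell list were 0.73, 0.34 and 0.32 there, and 0.81, 0.37 and 0.36 with normexp and quantile normalisation. With normexp and the 75th percentile Cd3e differed by 1.05, Lck by 0.73, Cd8a by 0.41, the Cd8b probes by 0.66 and 0.37 and the Cd4 probes by 0.39 and 0.25, and the calls of Cd4 and the dim Cd8b probe were lost. With normexp and quantile normalisation, chosen after seeing the data, 6 passed. The call of the bright Cd4 probe was also lost with quantile normalisation (adjusted p = 0.0523) and the median of each array (0.0510), out of 0.0268 to 0.305 over all alternatives. The dimmer Cd4 probe passed without NDMA animal 2 (1.08, adjusted p = 0.0463). The cause of these changes was not tested.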

Other observations

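One gene of the T cell list, chosen after its values were seen, was read at a level that stands out. Tbx21, which encodes the T cell transcription factor T-bet, had log2 signals of 5.79, 5.68 and 5.84 in NDMA animals, against 5.94, 6.03 and 6.03 in controls, and its difference of -0.23 ± 0.08 did not pass (adjusted p = 0.224). The summed signal of the T cell list, which this probe dominates, was 59.7 to 65.3 times the 75th percentile in NDMA animals and 66.9 to 71.2 in controls, although 8 of its 23 tested genes rose and 0 fell. The summed signal of the signalling list was 34.4 to 39.1 in NDMA animals and 28.7 to 29.8 in controls.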
